A study of Macaca mulatta with 4 samples.

Results

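The annexin and S100 genes of RF/6A cells, the genes of 2 families of calcium-binding proteins, were taken from the count table by symbol: ANXA followed by a number, or S100 followed by A, B, G, P or Z with or without a number. There were 22 such genes, 10 annexin and 12 S100, among 21314 rows, of which 14654 had a symbol. RF/6A is a rhesus macaque (Macaca mulatta) line that the labels describe as chorioretinal, and the series asks whether it shows the traits of endothelium, the cell layer of blood vessels. The 4 libraries, titled static, were all made from total RNA of this line, bought as 1 lot and kept at 37 °C and 5% CO2 in DMEM with 10% heat-inactivated serum and antibiotics. They form 1 group with no treated or control cells, so differences between libraries are not effects of a condition. Nothing in the labels says that the libraries came from separate cultures, and spreads may be technical.

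Annexins bind phospholipid membranes when calcium rises, and act in membrane repair, vesicle traffic and, outside the cell, in coagulation and the resolution of inflammation. S100 proteins are small EF-hand calcium sensors that work mostly as dimers and change the activity of the proteins they bind, and several of them bind an annexin's N-terminal tail. The best known complex is that of ANXA2 with S100A10, a cell-surface site for plasminogen activation on endothelium and other cells. ANXA1 with S100A11 and ANXA11 with S100A6 are others. S100 transcripts are short and annexin transcripts longer, as general knowledge. No lengths or sequences were used here. Shares of counts, rankings by CPM and count ratios between genes are therefore not corrected for length. Differences between libraries are read within each gene, list or ratio.

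Libraries held between 20366946 and 20550610 estimated counts. Library 2 stood apart from the other 3 in composition: across the 12453 genes that averaged 1 CPM (counts-per-million) or more, log2 levels correlated at 0.80 to 0.83 in pairs with library 2 and at 0.98 to 0.99 in pairs without it, across genes, which are not independent replicates. Libraries were scaled by edgeR's trimmed-mean method (TMM), which raises library 2 relative to plain CPM. Over all genes, the log2 difference between library 2 and the median of libraries 1, 3 and 4 had a median of -0.07 with TMM and -0.49 without scaling. Levels by library are given with TMM, and the log2 ratio with plain CPM is added for the genes and lists whose direction in library 2 turned or came near 0 without scaling. Of the markers of mesenchymal cells (COL1A1, COL1A2, COL3A1, PDGFRB and THY1), 5 of 5 reached 1 CPM in every library, against 1 of 5 endothelial markers (PECAM1) and 2 of 4 matched markers of retinal pigment epithelium (RPE65 and BEST1). Of all rows with a symbol, 64.2% did. RPE65 did so with TMM but not with plain CPM, where it had 0.979 CPM in library 2.

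All 10 annexin genes were expressed, defined as 1 CPM or more in each of the 4 libraries, and 5 of the 12 S100 genes were. The same rule held for 64.2% of rows with a symbol and for 52.9% of all rows. The expressed S100 genes were S100A3, S100A4, S100A6, S100A11 and S100A16. S100A1 and S100A2 averaged above 1 CPM but fell short of it in at least 1 library, S100A5 and S100A8 had a few counts, and S100A9, S100G and S100P had no count. Annexin genes together held 0.859% of the counts of library 2, against 0.734%, 0.781% and 0.825% in libraries 1, 3 and 4. S100 genes held 0.25% of the counts of library 2, against 0.0862%, 0.0836% and 0.0903% in libraries 1, 3 and 4.

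**Figure D1:**
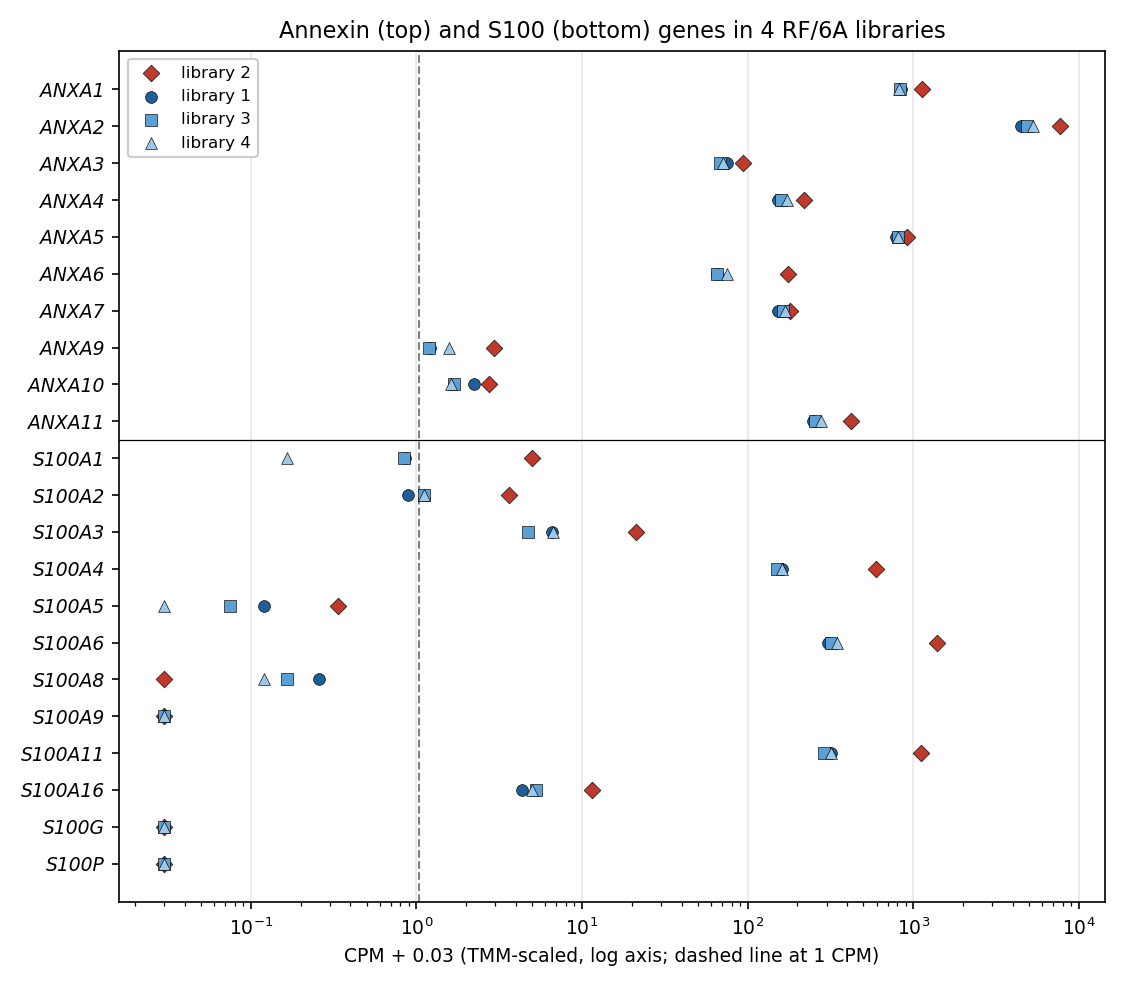
Markers show CPM + 0.03 with TMM scaling, on a log axis, in each RF/6A library for the 10 annexin genes above the line and the 12 S100 genes below it, and the dashed line marks 1 CPM. All annexin points lie right of the line, while S100A9, S100G and S100P lie at 0 and library 2 lies furthest right for 8 S100 genes.

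ANXA2 (ENSMMUG00000012000), which forms the plasminogen-binding complex with S100A10, drew most of the annexin counts, 71.01% of them in library 2 and 65.7% to 68.7% in the others. Its level was 7689 CPM in library 2, against 4471, 4853 and 5269.7 CPM in libraries 1, 3 and 4. ANXA1 (ENSMMUG00000012667), the glucocorticoid-induced protein that dampens inflammation through formyl peptide receptors, had 1126 CPM in library 2, against 842, 827 and 823 CPM in libraries 1, 3 and 4. ANXA5 (ENSMMUG00000009194), which binds exposed phosphatidylserine and is used as a label of dying cells, had 916 CPM in library 2, against 791, 805 and 806 CPM in libraries 1, 3 and 4. Libraries 1, 3 and 4 differed little for ANXA1 and ANXA5, with coefficients of variation of 1.21% and 1.08% (n = 3). With plain CPM the log2 ratio of library 2 to their median was -0.0063 for ANXA1 and -0.26 for ANXA5, so neither was higher in library 2 without scaling. The median over all genes tested was 8.85%, and counting error alone would give 0.738% for ANXA1 and 0.752% for ANXA5.

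Among annexins of vesicle and endosome membranes, ANXA6 (ENSMMUG00000021053), which carries a double annexin core and acts in endosome and cholesterol traffic, had 176 CPM in library 2, against 65.01, 65.05 and 74.6 CPM in libraries 1, 3 and 4. Its library 2 value was the furthest from the others of any annexin, at 2.69 times their median with TMM and 1.97 times with plain CPM. ANXA11, which tethers RNA granules to lysosomes, had 422 CPM in library 2, against 248, 257 and 279 CPM in libraries 1, 3 and 4. ANXA7, or synexin, linked to the fusion of secretory granules, had 180.1 CPM in library 2, against 153, 164 and 168 CPM in libraries 1, 3 and 4. ANXA4, found on the secretory membranes of epithelial cells, had 219 CPM in library 2, against 152, 158 and 172 CPM in libraries 1, 3 and 4. For ANXA7 and ANXA4 the TMM values of library 2 exceeded the others, while their log2 ratios with plain CPM were -0.31 and 0.02. ANXA3, described as an inhibitor of phospholipase A, had 93.6 CPM in library 2, against 75.3, 68.02 and 71.3 CPM in libraries 1, 3 and 4, and its log2 ratio with plain CPM was -0.045.

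The remaining annexins were near the threshold. ANXA9, whose calcium-binding sites differ from those of other annexins, had 47 counts (2.9 CPM) in library 2, against 26, 26 and 34 counts (1.17 to 1.54 CPM) in libraries 1, 3 and 4. ANXA10, known from stomach epithelium, had 44 counts (2.71 CPM) in library 2, against 48, 37 and 35 counts (1.58 to 2.18 CPM) in libraries 1, 3 and 4. The exact 95% Poisson limits of the summed counts were 1.35 to 1.91 CPM for ANXA9 and 1.69 to 2.31 CPM for ANXA10, and cover counting error only. Both genes fell below a threshold of 2 CPM, which left 8 annexins.

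S100A6 (ENSMMUG00000008917), or calcyclin, a growth-associated partner of CACYBP and ANXA11, had 1394 CPM in library 2, against 305, 319 and 345 CPM in libraries 1, 3 and 4. S100A11 (ENSMMUG00000004441), the partner of ANXA1, had 1117 CPM in library 2, against 319, 289 and 321 CPM in libraries 1, 3 and 4. S100A4 (ENSMMUG00000010979), a fibroblast-associated protein that binds the non-muscle myosin MYH9, had 596 CPM in library 2, against 162, 149.7 and 160.4 CPM in libraries 1, 3 and 4. Library 2 was separate from the other libraries for all 3 genes. These genes carried 98.7% of the S100 counts in library 2 and 98.4% to 98.5% in the others. A second identifier named S100A11 is in the name table with no row in the counts, so reads of a near copy may be included in the S100A11 row.

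S100A3, a protein of the hair cuticle, had 344 counts (21.2 CPM) in library 2, against 144, 105 and 148 counts (4.72 to 6.69 CPM) in libraries 1, 3 and 4. S100A16, a widely expressed S100 protein, had 186 counts (11.5 CPM) in library 2, against 95, 117 and 109 counts (4.32 to 5.26 CPM) in libraries 1, 3 and 4. Both reached 1 CPM in every library. S100A1, known for its action on calcium cycling in heart muscle, had 80 counts (4.93 CPM) in library 2, against 18, 18 and 3 counts in libraries 1, 3 and 4. Its mean of 1.67 ± 2.2 CPM (SD, n = 4) rests on library 2 and was 0.588 ± 0.392 CPM without it (n = 3). S100A2, a nuclear protein of squamous epithelium, had 58 counts (3.58 CPM) in library 2, against 19, 24 and 24 counts in libraries 1, 3 and 4, and its mean was 1.65 ± 1.29 CPM (SD, n = 4) with library 2 and 1.01 ± 0.126 CPM without it (n = 3).

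S100A8 and S100A9, the subunits of calprotectin in neutrophils and monocytes, were at or near 0. S100A8 had no count in library 2, against 5, 3 and 2 counts in libraries 1, 3 and 4, and S100A9 had none in any library. A count of 0 over the 4 libraries allows up to 0.0363 CPM for counting error alone, a limit that also applies to S100G, the intestinal calcium-binding protein calbindin, and to S100P, first found in placenta. The myeloid markers ITGAM and CSF3R also had no count, PTPRC and CD14 stayed under 1 CPM in every library, and LYZ was the 1 of 5 myeloid markers expressed. S100A5, an S100 protein of olfactory neurons, had 5 counts in library 2, against 2, 1 and 0 counts in libraries 1, 3 and 4.

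In the RefSeq order of protein-coding genes on chromosome 1 (the current rhesus assembly, used for names and neighbours only), S100A5 lies directly between S100A4 and S100A6. A gene with at most 5 counts in a library therefore sat between neighbours with at least 3331 and 6709 counts in every library. S100A3 and S100A2 lie on the far side of S100A4, in that order, and S100A16 follows S100A2. S100A8 and S100A9 lie beyond S100A6 in the same cluster, with S100A12 between them. S100A7, S100A12, S100A13 and S100A14 of this cluster had no row, so the pattern along it is known only in part.

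Library 2 was compared with libraries 1, 3 and 4 as a description of 1 library, with no test between groups, since it is not a group of its own. With TMM it was the highest library for all 10 annexin genes and for 8 of the 12 S100 genes, and the lowest for 1 (S100A8). Among genes averaging 1 CPM or more it was highest for 10 of 10 annexins and 7 of 7 S100 genes, against 43.8% of all genes. S100A1 was among these 7 only through library 2. With plain CPM library 2 was highest for 4 annexins and for the same number of S100 genes, 8. Among genes averaging 1 CPM or more these were 4 annexins and 7 S100 genes, against 31.4% of all genes. The plain log2 ratio was below 0 for ANXA1, ANXA3, ANXA5 and ANXA7. Every annexin ratio lay above the all-gene median under both scalings, from 0.21 to 1.5 log2 units above it with TMM and from 0.18 to 1.47 with plain CPM. The annexin ratios nearest the all-gene median were those of ANXA5 and ANXA7, which exceeded 57.6% and 56.01% of all genes.

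S100 genes lay further above. With TMM, the library 2 ratios of the 7 S100 genes averaging 1 CPM or more ran from 1.14 for S100A16 to 2.13 for S100A6, with a median of 1.81. The 10 annexin ratios ran from 0.14 for ANXA7 to 1.43 for ANXA6, with a median of 0.52. The ranges overlapped, since ANXA6 exceeded S100A2 (1.37) and S100A16. S100A1 passed the filter only through library 2. When the filter was set on libraries 1, 3 and 4, library 2 was at least 1 log2 unit above the median of the others for 6 of 6 S100 genes and 2 of 10 annexins (ANXA6 and ANXA9), against 18.6% of all genes, and the S100 median was 1.71 on the log2 scale. With plain CPM and the same filter this held for 5 of 6 S100 genes, without S100A16 (0.73), and for 0 annexins, with ANXA6 at 0.98 and ANXA9 at 0.66, against 9.13% of all genes. S100A6 had a higher ratio than 99.03% of all genes tested and S100A4 than 97.3%.

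**Figure D2:**
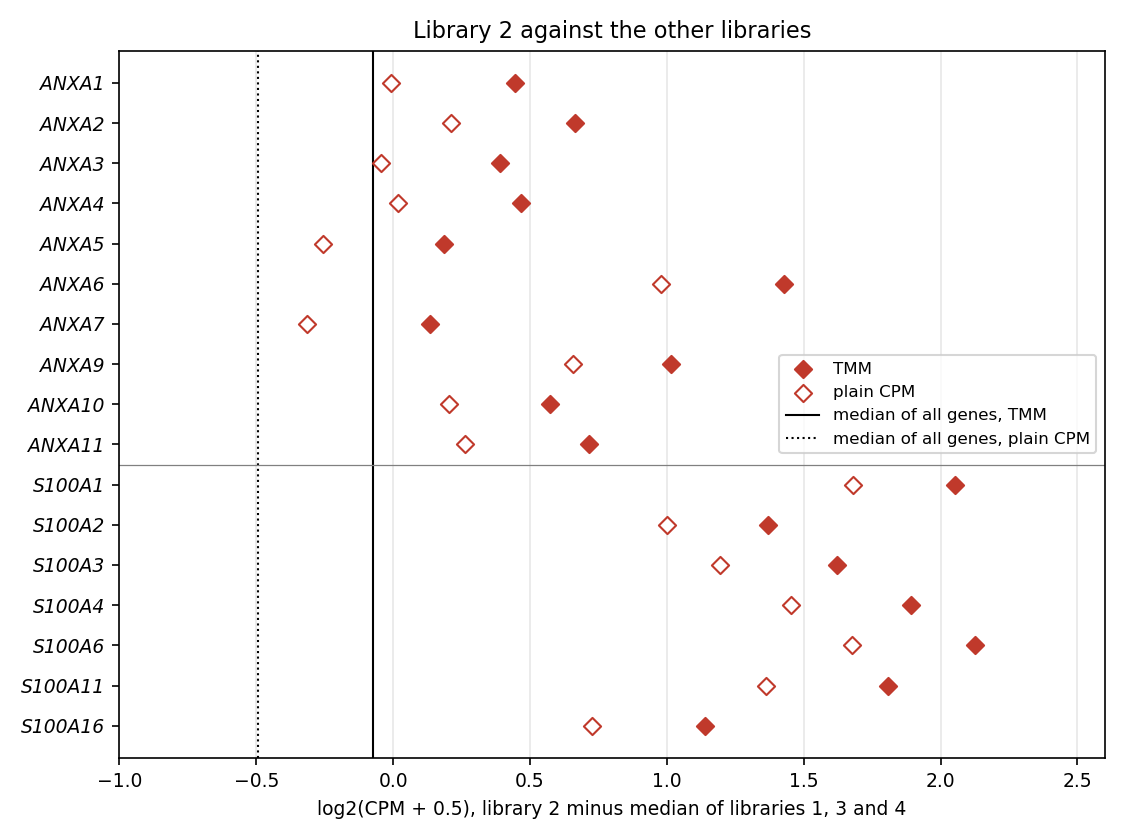
Points give the difference in log2(CPM + 0.5) between library 2 and the median of libraries 1, 3 and 4 for the 17 genes averaging 1 CPM or more, with TMM (filled) and plain CPM (open), annexins above the grey line and S100 genes below it, and vertical lines mark the medians of all genes. S100 points lie between 1.14 and 2.13 with TMM, and the open points of ANXA1, ANXA3, ANXA5 and ANXA7 lie below 0.

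Each library was judged by its gap to its nearest neighbour over the range of the 4 (Dixon's test for 4 samples). Library 2 lay apart and high for 6 of 6 S100 genes that averaged 1 CPM or more in libraries 1, 3 and 4. The same held for 3 of 10 annexins, ANXA1, ANXA5 and ANXA6. S100A1 also passed, but it was in the tested set only through library 2, and its call carries no weight. The same call was made for 21.8% of all genes with TMM. That share is over genes averaging 1 CPM or more in all 4 libraries together. It was not computed with the filter on libraries 1, 3 and 4. With plain CPM, the call was made for S100A2, S100A4, S100A6, S100A11 and 1 of 10 annexins (ANXA6), against 11.4% of all genes. ANXA5 was then apart and low. No other library lay apart for any of these genes. The median coefficient of variation of the S100 genes averaging 1 CPM or more was 78.9% over 4 libraries and 9.81% without library 2, and that of the annexins 21.6% and 6.2%. The medians over all genes were 35.05% and 8.85%.

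Genes of other families were set beside these values, in lists chosen after the values were seen. Cytosolic ribosomal protein genes and NADH dehydrogenase subunit genes, known for short transcripts, had median library 2 ratios of 1.83 (60 genes) and 1.53 (22 genes) on the log2 scale with TMM. The S100 median was 1.81, and 1.71 with the filter on libraries 1, 3 and 4, which leaves out S100A1. Collagen chain genes and myosin heavy chain genes, known for long transcripts, had medians of -1.03 (27 genes) and -1.31 (3 genes), and the annexin median of 0.52 lay between. Neither family was uniform. Library 2 was highest for 10 and lowest for 17 of the collagen genes, and highest for 1 and lowest for 2 of the myosin genes. The myosin median is the value of the single gene MYH9. Summed mesenchymal markers were 32013 CPM in library 2, against 22223 to 24329 CPM in the others with TMM, and 25399.5 CPM against 23984 to 26177 CPM with plain CPM, inside the range of the others. The members differed, as COL1A1 had a log2 ratio of 0.93 with TMM, COL3A1 -0.10 and PDGFRB -0.84. Markers of glia and melanocytes, mostly PMEL, summed to 46.6 CPM in library 2 against 32.2 to 36.5 CPM with TMM, and to 36.95 CPM against 34.9 to 39.3 CPM with plain CPM. Endothelial markers summed to 3.52 CPM in library 2 against 3.28 to 4.58 CPM with TMM, and to 2.79 CPM against 3.54 to 4.97 CPM with plain CPM. The sums of the remaining lists were lower in library 2 under both scalings. With TMM they were 3.39 CPM against 18.4 to 35.3 CPM for retinal pigment epithelium, 7.83 CPM against 8.87 to 10.2 CPM for epithelium and 6.11 CPM against 8.19 to 10.2 CPM for myeloid cells. Members differed here too. With TMM the log2 ratio was 0.73 for EPCAM (0.36 with plain CPM) and -0.60 for CDH1. It was -0.09 for RPE65, -2.99 for BEST1 and -2.07 for MITF. The myeloid sum was mostly LYZ. The part of transcript length or cell makeup in the S100 values was not tested.

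Ratios of partner counts within a library do not depend on scaling. They would still move with an effect of transcript length that differs between libraries, which was not tested. S100A11 had 0.992 counts per ANXA1 count in library 2, against 0.379, 0.35 and 0.39 in libraries 1, 3 and 4. For S100A6 per ANXA11 count the ratio was 3.3 in library 2, against 1.23, 1.24 and 1.24 in libraries 1, 3 and 4, where it varied by an SD of 0.00639 around 1.24 (n = 3). For S100A4 per ANXA2 count, a pair also known to bind, it was 0.0776 in library 2, against 0.0362, 0.0308 and 0.0304 in libraries 1, 3 and 4. Library 2 was 2.66, 2.67 and 2.39 times the geometric mean of the others for these pairs, and 2.61 times for all S100 counts over all annexin counts. Each ratio thus differed between library 2 and the other libraries by more than the spread among those 3. Library 2 lay apart by the gap test for each pair and for the family sums. The family sums moved about as much as the pairs, but they are made largely of the same genes. S100A4, S100A6 and S100A11 held 98.4% to 98.7% of the S100 counts. The sums therefore cannot show whether the difference was particular to binding partners. How many pairs of other genes would pass was not computed. The gap test singles out 1 library and compares no conditions. S100A10, the partner of ANXA2, has an identifier in the name table that matches no row of the counts, so that pair is not analysed here, and neither are S100A12, S100A13, S100A14, S100B and ANXA13, for the same reason.

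**Figure D3:**
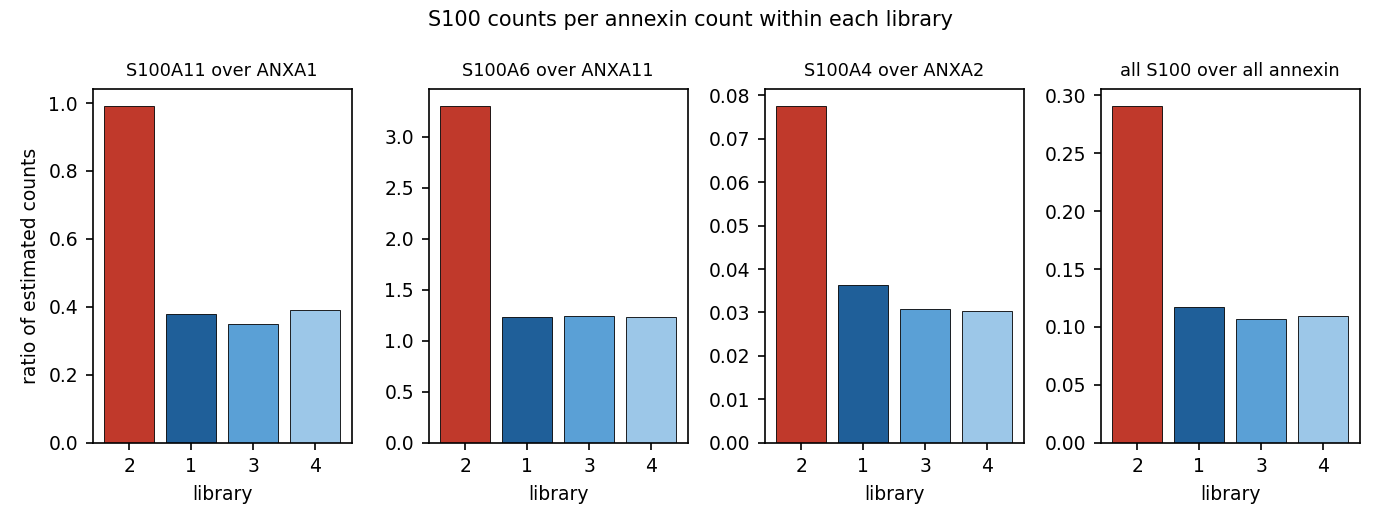
Bars give the ratio of estimated counts of an S100 gene to those of its annexin partner in each library, with library 2 in red at the left, and of all S100 to all annexin counts in the last panel. S100A11 per ANXA1 was 0.992 in library 2 and 0.35 to 0.39 in the others, and each panel has its own axis starting at 0.

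Of 17 proteins tied to annexin and S100 function, 15 matched a row and 13 were expressed, beside 64.2% of all rows with a symbol. MYH9, the S100A4-binding myosin, had 841 CPM in library 2, against 2134, 2087 and 1999 CPM in libraries 1, 3 and 4. AHNAK, the giant scaffold that binds ANXA2 with S100A10, had 646 CPM in library 2, against 1127, 961 and 939.8 CPM in libraries 1, 3 and 4. MYOF, a ferlin of membrane repair, had 322.5 CPM in library 2, against 749.7, 727 and 667 CPM in libraries 1, 3 and 4, and PDCD6IP, or ALIX, of the ESCRT repair machinery, had 228 CPM in library 2, against 331, 351 and 329.5 CPM in libraries 1, 3 and 4. These are the highest 4 of the list. Of the 13 expressed members, library 2 was lowest for 8 and highest for 5 under both scalings, while with TMM it was lowest for 48% of all genes. SRI and PLGRKT, 2 of the 5, had log2 ratios of 1.33 and 1.40 with TMM, GCA 0.96, CACYBP 0.94 and PLAUR 0.69. CACYBP, the S100A6-binding protein, had 146 CPM in library 2, against 75.8, 76.02 and 83.2 CPM in libraries 1, 3 and 4. DYSF, or dysferlin, had no count, and TRIM72, a muscle repair protein, averaged 0.219 CPM.

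Receptors were mostly absent from the expressed set, with 2 of 6, beside 64.2% of all rows with a symbol. BSG, a receptor proposed for S100A9, had 241.5 CPM in library 2, against 173, 154.5 and 208 CPM in libraries 1, 3 and 4, but with plain CPM its 192 CPM in library 2 lay within the 168 to 224 CPM of the others. AGER, the receptor for advanced glycation end products that binds several S100 proteins, had 24.06 CPM in library 2, against 7.96, 7.86 and 9 CPM in libraries 1, 3 and 4. The formyl peptide receptors FPR1, FPR2 and FPR3, through which ANXA1 acts on leukocytes, averaged 0.0338, 0.118 and 0.25 CPM (n = 4). TLR4, which S100A8 with S100A9 can engage, had counts in library 3 only and averaged 0.0225 CPM. Of 11 related genes outside the symbol rule, including the fused S100 genes of skin, 4 matched a row. S100PBP was expressed at 10.9 ± 1.19 CPM (SD, n = 4), and RPTN, CRNN and TCHHL1 had no count.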

How the data were processed

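The authors deposited estimated counts per Ensembl rhesus gene, as whole numbers and not divided by length. The submitters' processing notes name Salmon and DESeq2, with no version or role, and the build and annotation release were not given in the sources used here. Because Salmon divides reads among similar transcripts, close copies carry an assignment error that intervals do not cover. Symbols came from a table of Ensembl identifiers, which matched 14654 rows and left 6660 without a name. Counts were scaled with TMM in edgeR 4.0.16 (R 4.3.3) and given as CPM. Ratios of library 2 used log2(CPM + 0.5), which compresses low genes, over genes averaging 1 CPM or more. A count of 3 stands for the limit that a count of 0 allows. Members, lists and pairs were chosen with earlier results of these data known. Every member is accounted for, members expressed in every library and partner genes are given by library, and from the partner list the 4 highest are named. Levels per kilobase, the sign-flip tests on them and length bins, all planned, were not run because no transcript lengths were at hand, and count ratios within libraries took their place. SRI, PLGRKT, GCA, CACYBP, PLAUR, DYSF and TRIM72 were named after their values were seen. On simulated libraries with 200 genes raised 4-fold in library 2, among 17534, their median log2 ratio came out at 1.99. The gap test called library 2 high for 96.5% of them, and called any library, high or low, for 4.88% of unchanged genes. Apart from the raised genes the simulated libraries shared 1 profile, with a dispersion of 0.02. The real library 2 differed across the table, so these rates do not carry over to it. DESeq2 1.42.0 size factors, plain CPM, other pseudocounts, thresholds and filters, and leaving out each library were the alternatives.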

Additional observations from a re-analysis of the deposited data

Results flagged for a closer look

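In 21 values tested for 1 library lying far from the other 3 (17 genes and 4 ratios), library 2 was flagged in 14 and no other library in any, where chance flags about 1 in 20. Library 2 was apart across the table, and the same call of library 2 as high was made for 21.8% of all genes with TMM and for 11.4% with plain CPM, so 1 in 20 is not the level to read this count against. These values share a library and are not independent, and S100A1 was in the tested set only because of its level in library 2. With TMM, library 2 was high for ANXA1 at 1126 CPM, ANXA5 at 916 CPM, ANXA6 at 176 CPM, S100A1 at 4.93 CPM, S100A2 at 3.58 CPM, S100A3 at 21.2 CPM, S100A4 at 596 CPM, S100A6 at 1394 CPM, S100A11 at 1117 CPM and S100A16 at 11.5 CPM. The ratio of counts was high in library 2 for S100A11 over ANXA1 at 0.992, S100A6 over ANXA11 at 3.3, S100A4 over ANXA2 at 0.0776 and all S100 over all annexin genes at 0.291. With plain CPM, ANXA5 was low in library 2 in place of high, and ANXA1, S100A1, S100A3 and S100A16 no longer lay apart.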

How the results depend on the processing

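The number of expressed annexins was 10 under each scaling and each library left out, and 8 at a threshold of 2 CPM. Expressed S100 genes numbered 5 to 6 with a library left out and under the other thresholds. Plain CPM lowered the number of members with a library apart to 6, against 10 with TMM, because it does not raise library 2. The number also depended on the scale of the test. With TMM it was 7 on log2(CPM + 0.5), and the same with pseudocounts of 0.1 and 1. It was 8 for members averaging at least 5 CPM, and 11 with DESeq2 size factors. Plain CPM turned the library 2 log2 ratio of ANXA1 (-0.0063), ANXA3 (-0.045), ANXA5 (-0.26) and ANXA7 (-0.31). The difference between the S100 and annexin medians of that ratio, 1.29 log2 units, was 1.25 with plain CPM, 1.10 with no filter, 1.11 with means, 1.19 with the filter on libraries 1, 3 and 4, and 1.35 to 1.41 with library 1, 3 or 4 left out. The causes were not tested. Count ratios of partner pairs kept their direction with library 1, 3 or 4 left out, with log2 differences of 1.37 to 1.45 for S100A11 over ANXA1, 1.41 to 1.42 for S100A6 over ANXA11 and 1.21 to 1.34 for S100A4 over ANXA2. Leaving out library 2 left no such value, and the gap test was not run on 3 libraries. The ANXA2 with S100A10 pair and length bins were not run. No paired analysis was possible because there is only 1 group. Depth limits genes of a few counts, such as S100A5 and S100A8.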
